A study of Bombus terrestris audax with 20 samples.

Results

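The mid-to-late transition was examined in worker-destined larvae of the bumblebee *Bombus terrestris audax* by comparing the 3 late-instar worker-destined libraries (LW1, LW2 and LW3) with the 2 mid-instar worker-destined libraries (MW2 and MW3). These 5 libraries are the members, out of 17 libraries in the deposited table, and they were chosen by their labels alone. Every one of the 14817 features in the table was compared. Each library was made from a pool of whole female larvae of one colony, so n counts pools, and fewer cells of a type and less RNA per cell cannot be told apart in such samples. LW larvae were in the fourth larval instar and MW larvae in the third, and they came from 3 colonies whose queen had been left in place (MW2 and MW3 from 2 of them). Early-instar worker-destined larvae (EW, 3 libraries, from the first and second instars) and queen-destined larvae of the late (LQ, 3 libraries) and mid (MQ, 3 libraries) stages, reared in 4 colonies whose queen had been removed, are used only to place the worker-destined change. The authors inferred caste fate from whether the queen was kept and checked it by mass, head width and the caste of larvae left to develop; caste and queen presence cannot be told apart here.

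Bumblebee larvae feed and grow through successive moults, and the last instar is when most of the mass is gained before the larva spins a cocoon and pupates. Insect larvae store amino acids for metamorphosis in hexamerins, large proteins that are made in the fat body, released into the haemolymph and taken up again before pupation. The timing of moults is set by ecdysone and juvenile hormone, acting through transcription factors such as Kruppel homolog 1 (Kr-h1, an early juvenile hormone response gene) and broad-complex (a regulator linked in insects to the larval-pupal transition).

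The values are normalised abundances: reads mapped to each feature, scaled for feature length and quantile-normalised, so that each library has nearly the same distribution (medians between 117.811 and 117.851, and a maximum of 390971 in each). An abundance is therefore a rank placed on a shared scale, sequencing depth cannot be read from the values, and no counting error can be given. Of the features, 10005 are annotated genes and 4812 are unannotated transcripts; product names could be attached to 597 features, of which 451 have a name other than uncharacterised. Feature IDs give the sequence, start and end on the Bter_1.0 assembly. Differences are on the log2(abundance + 20) scale, which understates the change of low features. The test was limma with Benjamini-Hochberg adjustment over all features, and a feature was called when its adjusted p was under 0.05.

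LW1 stood apart from LW2 and LW3. The mean absolute log2 difference over all features was 0.337 between LW1 and LW2 and 0.382 between LW1 and LW3, against 0.231 between LW2 and LW3, while LW1 lay 0.357 from MW2 and 0.372 from MW3. The 2 MW libraries lay 0.213 apart; the authors had removed the remaining MW pool, MW1, because it resembled these less, so the spread among MW pools is shown only for the ones retained. On the axis from the MQ mean (position 0) to the LQ mean (position 1), built from the 5287 features that differed between LQ and MQ in a fit of the 9 queen-destined libraries only, LW1 was at 0.424, LW2 at 0.781 and LW3 at 0.889, whereas MW2 was at 0.065 and MW3 at 0.0544. The 3 EW libraries lay between -0.123 and -0.0403. All 3 LW libraries were thus beyond both MW libraries on an axis that no worker-destined library had helped to define, with LW1 between the MW libraries and the other LW libraries. LW1 came from a colony with no MW library in the table, so colony and the position of LW1 cannot be told apart. The paper also gives LW1 as the library with the fewest reads after MQ3 and LQ3 were removed. All libraries were subsampled to its number of reads, and a part of depth in its position was not tested. A further split concerned the unannotated feature uNW_003568514.1_1_229, which was above 50000 in 9 of the 17 libraries: it was at 136800 in LW1, 999.5 in LW2 and 104466 in LW3, and at 1384 in MW2 and 1356 in MW3. The 188 features whose values followed that split included 0 of the features called between LW and MW. LW2 lies on the MW side of the split, away from LW1 and LW3, so this 0 was nearly fixed in advance. It does not show whether the split affects the calls.

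**Figure D1:**
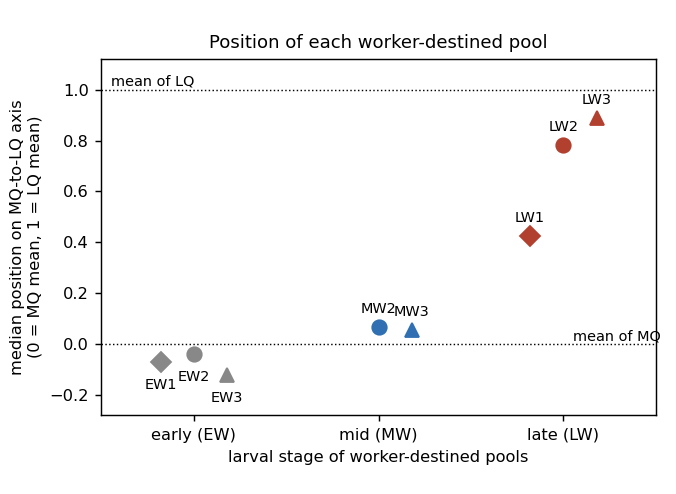
Position of the 8 worker-destined libraries on the queen-destined mid-to-late axis (vertical axis, median over 5287 features, 0 at the MQ mean and 1 at the LQ mean) by larval stage (horizontal axis, early to late). Each point is 1 library. LW1 at 0.424 lies between the MW libraries (0.0544 and 0.065) and LW2 and LW3 (0.781 and 0.889).

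Of the 14817 features, 2145 (14.5%) were higher in LW than in MW and 1575 (10.6%) were lower, 25.1% in either direction. Among those called, 475 were higher by more than 1 on the log2 scale and 459 were lower by more than 1. The median difference was 0.63 for features called higher and -0.79 for those called lower, against 0.01 over all features. Without LW1 the counts were 2985 (20.1%) higher and 1955 (13.2%) lower, 33.3% in either direction. Of the 3720 features called with LW1, 3541 were called in the same direction without it, 179 were called only with it, and 1399 were called only without it. No feature was called in opposite directions (0 of 3541). The counts were lower when another library was left out: 1409 higher and 1016 lower without LW2, 1177 and 718 without LW3, 831 and 459 without MW2, and 957 and 527 without MW3.

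The rule used for castes in the study, that the ranges of the groups do not overlap, gave 3907 features (26.4%) higher in LW and 3688 (24.9%) lower. Without LW1 it gave 5768 (38.9%) and 4869 (32.9%). An offset fold change (OFC, the log2 ratio between the nearest libraries of the groups after adding 20) above 1 was found for 187 features (1.26%) higher in LW and 118 (0.796%) lower, and without LW1 for 452 (3.05%) and 441 (2.98%). The OFC counts were 269 higher and 215 lower without MW2, and 255 and 248 without MW3. Leaving out a library can only keep or raise a count under either rule, so the direction of these changes was fixed in advance. Of the limma calls, 99.2% were in features whose ranges did not overlap, and those calls made up 48.6% of all features with separate ranges.

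Colonies 2 and 3 each gave an LW and an MW library, so the change could be read within a colony. In all 3720 called features, LW2 minus MW2 and LW3 minus MW3 both had the sign of the call, a direction that the call itself partly fixes. Over all 14817 features the changes in the 2 colonies had a Pearson correlation of 0.832, as a description across features, which are not independent replicates. Of the 5768 features that were higher in LW2 and LW3 than in both MW libraries, LW1 was at or above the lower of LW2 and LW3 in 948, between them and the MW range in 2959, and within or below the MW range in 1861. Of the 4869 that were lower, LW1 was at or below the higher of LW2 and LW3 in 1715, between in 1973, and within or above the MW range in 1181. LW1 was more than 1 OFC above the other 4 libraries in 82 features and below them in 1. The same counts were 4 and 9 for LW2, 27 and 47 for LW3, 33 and 15 for MW2, and 26 and 33 for MW3.

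**Figure D2:**
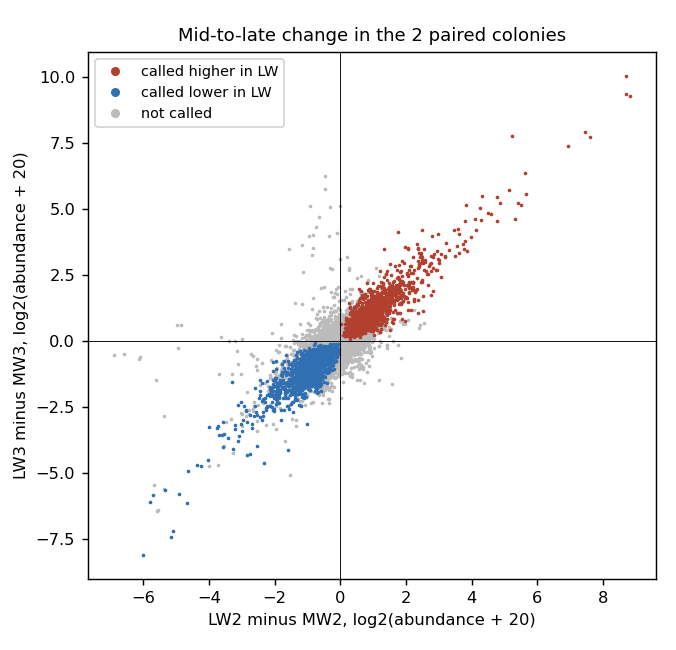
Difference between LW2 and MW2 (horizontal axis) and between LW3 and MW3 (vertical axis), both on the log2(abundance + 20) scale, for each of 14817 features. Red points are the 2145 features called higher in LW, blue points the 1575 called lower, and grey points those not called. The Pearson correlation over features is 0.832, and every called feature has the same sign in both colonies.

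Annotated and unannotated features differed in the balance of calls. Of the 10005 annotated features, 1888 (18.9%) were higher in LW and 791 (7.91%) were lower, with a median difference of 0.07. Of the 4812 unannotated features, 257 (5.34%) were higher and 784 (16.3%) were lower, with a median of -0.20. Without LW1 the annotated counts were 2663 higher and 927 lower, and the unannotated counts 322 and 1028. Among the 451 features with a name, 116 (25.7%) were higher and 23 (5.1%) were lower, and without LW1 157 (34.8%) and 41 (9.09%). The names come from a part of the study's annotation that leans towards features high in early queen-destined larvae, and how far that sets this balance was not tested.

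The named gene with the largest rise encodes an allergen Cr-PI-like protein (LOC100646552), a relative of a cockroach allergen of the hexamerin family. Its abundance was 390971 in LW1, LW2 and LW3, the highest value in the table, against 1976 in MW2 and 1846 in MW3. It was the most abundant feature in every LW library and had rank 657 in MW2 and 704 in MW3. The difference was 7.66 ± 0.32 (standard error; limma adjusted p = 3.03e-08). Because the value sits at the ceiling of the scale, any difference among the LW libraries could not be seen.

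The larval storage protein gene hexamerin (LOC100650745, NC_015777.1_4103831_4107629) was at 3384 in LW1, 4025 in LW2 and 4626 in LW3, against 1201 in MW2 and 1114 in MW3. All 3 LW libraries were above both MW libraries, by 1.77 ± 0.31 (limma adjusted p = 0.00206; without LW1 the difference was 1.88 and the adjusted p 0.00152). Hexamerin was not lowest early in development: across the stages it averaged 4180 ± 870 in EW (SD, n = 3), 1157 ± 60.9 in MW (n = 2) and 4012 ± 621 in LW (n = 3), with the lowest level in MW.

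Several features next to hexamerin rose more steeply. They were looked at after the values were seen. Of the 14 other features within 30 kb of it, 6 were higher in LW and 1 was lower, where 14.5% and 10.6% of all features were. The annotated gene NC_015777.1_4095027_4098619, 5212 bases away and with no name available, was at 226105 in LW1, 209819 in LW2 and 175329 in LW3, against 14513 in MW2 and 16329 in MW3 (3.72 ± 0.48, limma adjusted p = 0.000315). NC_015777.1_4085423_4089478 was at 71506 in LW1 and 136800 in both LW2 and LW3, against 309 in MW2 and 188 in MW3. NC_015777.1_4082401_4091929 was at 29399 in LW1, 71506 in LW2 and 67490 in LW3, against 139 in MW2 and 88.8 in MW3. These features overlap by 4056 bases and can share reads, so they are not separate observations. Their differences of 8.72 ± 0.81 and 8.63 ± 0.75 were among the 5 largest rises of any unnamed feature.

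The other 3 of these 5 lay elsewhere. NC_015774.1_5275961_5282153 had the largest rise (8.77 ± 0.71, limma adjusted p = 9.3e-06), with 9905 in LW1, 26959 in LW2 and 43341 in LW3, against 45.3 in MW2 and 21.2 in MW3. NC_015776.1_5111145_5112767 rose by 7.20 and NC_015763.1_11455529_11459336 by 6.75. LW1 was the lowest LW library in all 5, and was still far above both MW libraries.

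The 5 steepest falls among unnamed features, between -6.08 and -5.00, were smaller than these rises. NC_015771.1_1524712_1526197 was at 109 in LW1, 88.4 in LW2 and 42.4 in LW3, against 3871 in MW2 and 10706 in MW3 (-6.08 ± 0.68, limma adjusted p = 0.000123). NC_015772.1_6823653_6833868 was at 59.7, 58.2 and 42.05 in LW1, LW2 and LW3, against 2645 in MW2 and 9078 in MW3 (-6.08 ± 0.87). In NC_015763.1_3838250_3840620 the LW libraries were themselves far apart, with 1460 in LW1, 157 in LW2 and 44.1 in LW3, against 11226 in MW2 and 17503 in MW3 (-5.78 ± 1.23, adjusted p = 0.00569, and 0.0503 when MW3 was left out). The same held for NC_015763.1_6330025_6334507, with 275 in LW1, 26.7 in LW2 and 16.6 in LW3, against 2566 in MW2 and 2492 in MW3 (-5.00 ± 1.21, adjusted p = 0.0106, 0.0709 without MW2 and 0.0622 without MW3). NC_015772.1_3712247_3716247 fell by 5.31. LW1 was the highest LW library in all 5, and lay below both MW libraries in each.

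Of the 100 most abundant features by mean in LW, 68 were also among the 100 most abundant in MW. Of the LW 100, 21 were called higher in LW and 4 lower, and of the MW 100, 2 were higher and 20 lower, where 14.5% and 10.6% of all features were; choosing by the level in one stage favours these directions, so the counts are a description.

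Among the remaining named risers were genes whose names come from yeast cell-surface proteins, and whose role in bees is not known here. The putative GPI-anchored protein PB15E9.01c was at 2735 in LW1, 3598 in LW2 and 3492 in LW3, against 114 in MW2 and 60.9 in MW3 (4.98 ± 0.45, limma adjusted p = 2.38e-05). The flocculation protein FLO11-like was at 6487 in LW1, 8543 in LW2 and 8417 in LW3, against 410 in MW2 and 169 in MW3 (4.77 ± 0.53, adjusted p = 0.00012). In both, the groups did not overlap, and the MW libraries differed more in proportion than the LW libraries did.

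Cytochrome P450 4C1-like (LOC100651255), a monooxygenase, was at 397 in LW1, 728 in LW2 and 828 in LW3, against 10.8 in MW2 and 10.2 in MW3 (4.39 ± 0.23, limma adjusted p = 2.35e-07). Mitochondrial ornithine aminotransferase, which links ornithine to proline and glutamate metabolism, was at 2872 in LW1, 5451 in LW2 and 5230 in LW3, against 938 in MW2 and 655 in MW3 (2.44 ± 0.22, adjusted p = 2.2e-05). Its EW mean was 124, so that abundance was stepwise higher from EW through MW to LW. Monocarboxylate transporter 12-B was at 106 in LW1, 190 in LW2 and 199 in LW3, against 27.2 in MW2 and 26.4 in MW3 (1.94 ± 0.20). Its feature lies within a longer unnamed feature that rose by 0.91, and the 2 can share reads. The facilitated trehalose transporter Tret1-like, a carrier of the main blood sugar of insects, was at 1164, 1169 and 1385 in LW1, LW2 and LW3, against 480 in MW2 and 387 in MW3 (1.48 ± 0.23). It overlaps the feature of RING-box protein 2, a ubiquitin ligase subunit (1.23), and the 2 can share reads.

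Pleckstrin homology domain-containing family M member 2, known in mammals for lysosome positioning, rose by 2.70. Smaller rises were found for lipoyltransferase 1, which attaches lipoyl groups to mitochondrial enzymes (1.43), for vigilin, an RNA-binding protein (1.40), and for purine nucleoside phosphorylase-like, an enzyme of purine salvage (1.36). Sialidase-like, which removes sialic acids, was low throughout, with 26.9, 36.8 and 25.7 in LW1, LW2 and LW3, against 1.24 in MW2 and 0.438 in MW3 (1.25 ± 0.13). Axonemal dynein light chain 1-like was the most uneven of the 15 in LW, with 8.51 in LW1, 29.3 in LW2 and 49.4 in LW3, against 1.18 in MW2 and 0.538 in MW3 (1.14 ± 0.32, adjusted p = 0.021). Its call was lost without any one of LW2, LW3, MW2 and MW3 (limma adjusted p between 0.0582 and 0.104), as was that of purine nucleoside phosphorylase-like (0.0739 to 0.181).

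**Figure D3:**
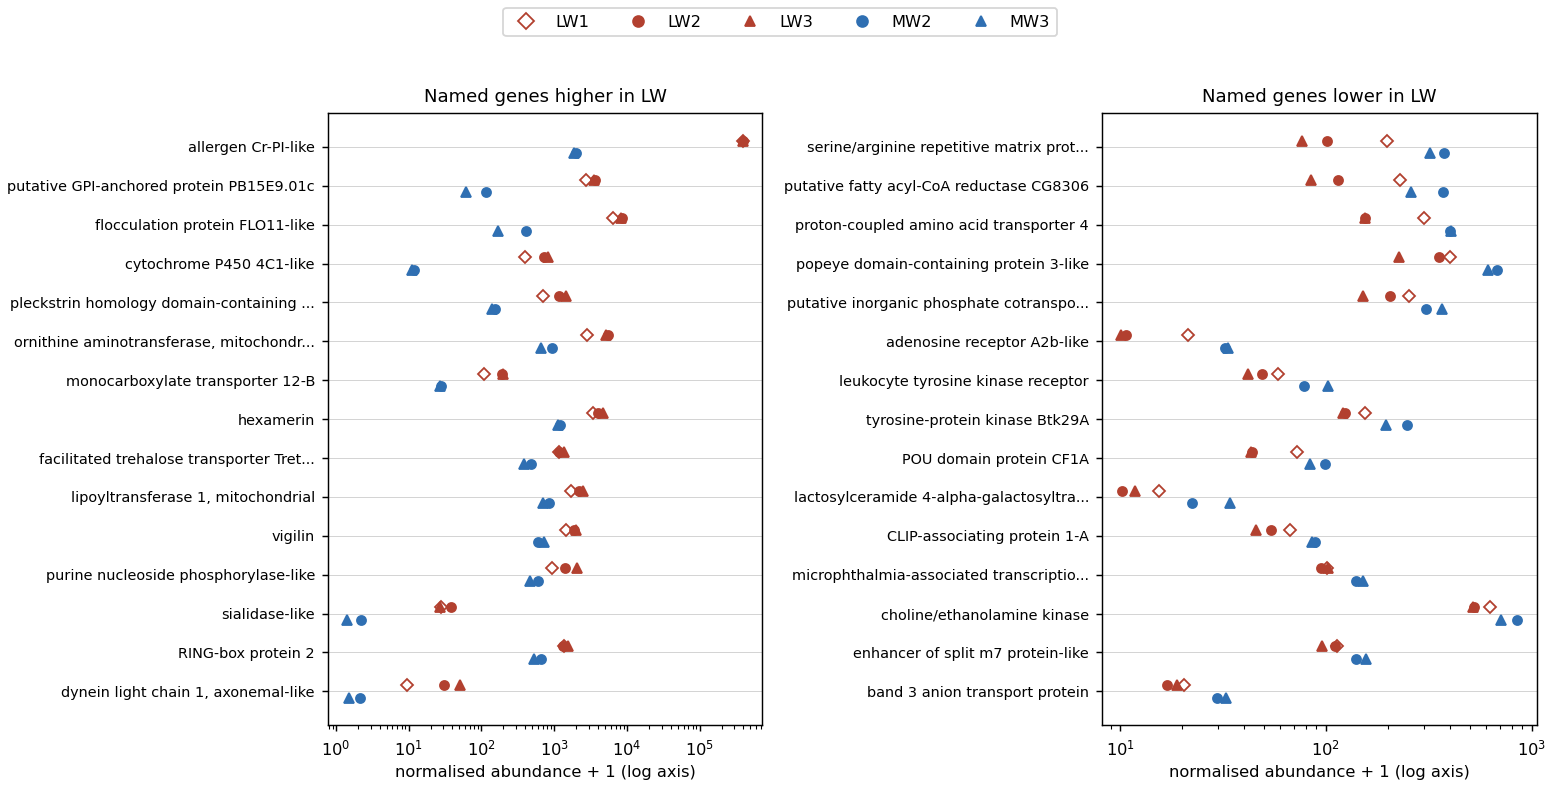
Normalised abundance plus 1 (log axis) of the 15 named genes with the largest rise (left) and the 15 with the largest fall (right) among those called with non-overlapping ranges. Red symbols are LW libraries, with LW1 open, and blue symbols MW libraries. LW1 lies between the MW libraries and LW2 and LW3 in many of the rows, as in cytochrome P450 4C1-like with 397 in LW1 against 728 and 828 in LW2 and LW3.

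The falls among named genes were shallower. Serine/arginine repetitive matrix protein 1, a splicing factor, was at 198 in LW1, 100.4 in LW2 and 75.7 in LW3, against 373 in MW2 and 320 in MW3 (-1.43 ± 0.28, limma adjusted p = 0.00349). The putative fatty acyl-CoA reductase CG8306, of a family that makes fatty alcohols, was at 228.6 in LW1, 114 in LW2 and 83.4 in LW3, against 370 in MW2 and 259 in MW3 (-1.13 ± 0.33, adjusted p = 0.0241). Proton-coupled amino acid transporter 4 was at 300.5 in LW1 and 153 in both LW2 and LW3, against 400.3 in MW2 and 405 in MW3 (-0.99 ± 0.20, adjusted p = 0.00472). Popeye domain-containing protein 3-like, of a family of cyclic AMP-binding membrane proteins known from vertebrate muscle, was at 399 in LW1, 354 in LW2 and 225 in LW3, against 679 in MW2 and 612 in MW3 (-0.98 ± 0.24, adjusted p = 0.0109). In each of the 4, LW1 was the LW library nearest to MW.

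Of the other 11 falls, 6 were in signalling genes and transcription factors: 2 tyrosine kinases, leukocyte tyrosine kinase receptor (-0.67) and Btk29A (-0.66), adenosine receptor A2b-like (-0.67), the transcription factors POU domain protein CF1A (-0.64) and microphthalmia-associated transcription factor (-0.47), and enhancer of split m7 protein-like, a Notch target in *Drosophila* (-0.41). The others were putative inorganic phosphate cotransporter (-0.70), lactosylceramide 4-alpha-galactosyltransferase-like (-0.58), the microtubule-binding CLIP-associating protein 1-A (-0.51), choline/ethanolamine kinase, of phospholipid synthesis (-0.46), and band 3 anion transport protein (-0.41). Of the 15 falls, 3 kept their call without any one of the 5 libraries: serine/arginine repetitive matrix protein 1, proton-coupled amino acid transporter 4 and the galactosyltransferase. The other 12 lost it without at least 1 of LW2, LW3, MW2 and MW3, with limma adjusted p up to 0.222 for enhancer of split m7 without MW3 and 0.202 for the phosphate cotransporter without MW3. The phosphate cotransporter also lost its call with colony as a block (adjusted p = 0.0801). None of the 15 lost it without LW1.

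The 451 named features were grouped by function, and each group was read against a background of 14.5% higher and 10.6% lower over all features and 25.7% and 5.1% over the named ones. The largest share was in the Golgi and vesicle transport group, in which 10 of 12 members were higher in LW, 0 were lower, and the median difference was 0.49. The same 10 of 12 was found without LW1, with a median of 0.60. With colony as a block, only brefeldin A-inhibited guanine nucleotide-exchange protein 1 of these 10 lost its call (limma adjusted p = 0.0858). Sly1, a partner of the SNARE proteins that fuse vesicles with the Golgi, was at 265, 414 and 378 in LW1, LW2 and LW3, against 176 in MW2 and 156 in MW3 (0.98 ± 0.17, limma adjusted p = 0.00203). The Golgi phosphoprotein 3 homolog rotini was at 430.3, 502 and 562 in LW1, LW2 and LW3, against 273 in MW2 and 237 in MW3 (0.91 ± 0.12). Rab-8A (0.86), transmembrane 9 superfamily member 2-like (0.82), the delta subunit of the coatomer that coats Golgi vesicles (0.68) and the recycling GTPase Rab-11A (0.50) rose as well. The groups did not overlap in any of these 6 genes, and all 6 also rose without LW1; only the coatomer subunit lost its call without another library (adjusted p = 0.0555 without MW2).

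In growth signalling, 5 of 11 members were higher in LW and 0 were lower (median 0.29; without LW1, 4 and 0). MOB kinase activator-like 1, of the Hippo pathway, was at 391, 469 and 555 in LW1, LW2 and LW3, against 235 in MW2 and 239 in MW3 (0.92 ± 0.11, limma adjusted p = 0.000218). Ribosomal protein S6 kinase beta-1-like, a kinase activated by TOR, was at 445, 495 and 510.1 in LW1, LW2 and LW3, against 315 in MW2 and 323 in MW3 (0.57 ± 0.11, adjusted p = 0.00373). Charybde-like, known in *Drosophila* as an inhibitor of TOR signalling, was higher too (0.91 ± 0.27, adjusted p = 0.0274, but between 0.0575 and 0.212 without any one of LW2, LW3, MW2 and MW3), so the members that rose include ones of opposite known action. Phosphatidylinositol 3-kinase regulatory subunit gamma was at the edge of the threshold (0.44, adjusted p = 0.0466) and lost its call without any one of the 5 libraries (0.0543 to 0.199) and with colony as a block (0.0782). The fat-like cadherin, related to a *Drosophila* tumor suppressor, was low and also at the edge (0.29, adjusted p = 0.0342), and lost its call without any one of LW2, LW3, MW2 and MW3 (0.0577 to 0.147) and with colony as a block (0.051). Transcriptional regulator Myc was at 14.1, 13.9 and 12.5 in LW1, LW2 and LW3, against 8.51 in MW2 and 6.26 in MW3, and did not pass (0.29, adjusted p = 0.0687; 0.0312 with colony as a block).

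Of the 5 cell cycle members, 3 were higher and 0 lower (median 0.54; without LW1, 4 and 0). BTG2-like, of an antiproliferative family, was at 1236, 1119 and 1219 in LW1, LW2 and LW3, against 559 in MW2 and 575 in MW3 (1.04 ± 0.11, limma adjusted p = 8.96e-05). Cyclin-dependent kinase 14 (0.64) and fizzy-related, an activator of the anaphase-promoting complex (0.54), were the others, and fizzy-related lost its call without MW2 (adjusted p = 0.0606). Cyclin-dependent kinase 4-like was uneven, with 79.5, 25.9 and 27.3 in LW1, LW2 and LW3, against 35.9 in MW2 and 53.2 in MW3, and did not pass.

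Nutrient transporters were split: 3 of 10 were higher and 2 lower (median 0.16), and without LW1 5 and 3. The risers were the monocarboxylate and trehalose transporters above and the solute carrier organic anion transporter family member 3A1, with 54.9, 58.4 and 56.6 in LW1, LW2 and LW3, against 24.9 in MW2 and 26.9 in MW3 (0.74 ± 0.09, limma adjusted p = 0.000227). The fallers were the amino acid and phosphate transporters above.

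Of 9 hormone signalling members, 2 were higher and 0 lower (median 0.07). Steroid hormone receptor ERR1, an orphan nuclear receptor that in *Drosophila* promotes carbohydrate metabolism during larval growth, was at 62.3, 96.1 and 84.3 in LW1, LW2 and LW3, against 32.0 in MW2 and 36.0 in MW3 (0.89 ± 0.12, limma adjusted p = 0.000508). Broad-complex was at 67.3, 61.3 and 56.3 in LW1, LW2 and LW3, against 47.9 in MW2 and 40.4 in MW3 (0.35 ± 0.11, adjusted p = 0.0394). That call was lost without any one of the 5 libraries (0.0756 without LW1, and between 0.056 and 0.254 without another) and with colony as a block (0.0593). Kr-h1 was at 233, 166 and 156 in LW1, LW2 and LW3, against 203 in MW2 and 200 in MW3, so that the MW values fell inside the LW range (-0.13 ± 0.16, adjusted p = 0.59). Cytochrome P450 307a1-like, the homologue of a *Drosophila* enzyme of ecdysone synthesis, was at 55.5, 39.8 and 37.7 in LW1, LW2 and LW3, against 27.7 in MW2 and 32.0 in MW3, and did not pass (adjusted p = 0.108). Nuclear hormone receptor HR38 was at 14.2, 5.34 and 3.82 in LW1, LW2 and LW3, against 18.0 in MW2 and 10.3 in MW3, and did not pass with LW1 (-0.31, adjusted p = 0.153; 0.0164 without).

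Patterning genes had 9 of 37 higher and 1 lower (median 0.10; without LW1, 13 and 1). Pygopus and pygopus-like, co-factors of Wnt signalling, rose by 0.51 and 0.63, and the posterior homeotic gene abdominal-B was at 10.8, 18.8 and 20.8 in LW1, LW2 and LW3, against 6.16 in MW2 and 3.93 in MW3 (0.55 ± 0.11, limma adjusted p = 0.0035). The 2 features of the repressor tramtrack were higher (0.73 and 0.43), but neither was called without LW1 (adjusted p = 0.0703 and 0.0841) or with colony as a block (0.0562 and 0.0882). Of the 17 chromatin and RNA-binding members, 3 were higher and 2 lower: heterogeneous nuclear ribonucleoproteins Q-like (1.06) and R (0.97) and AT-rich interactive domain-containing protein 4B (0.48) were higher, and histone deacetylase 4 (-0.31) and serine/arginine repetitive matrix protein 1 were lower. AT-rich 4B lost its call without MW2 (adjusted p = 0.0889) and MW3 (0.08), and histone deacetylase 4 without any one of LW2, LW3, MW2 and MW3 (0.0633 to 0.297) and with colony as a block (0.0631). Of the 34 adhesion members, 4 were higher, and 0 were lower (median 0.05; without LW1, 6 and 0). These were neuroglian (0.47, adjusted p = 0.0553 without MW2 and 0.0598 without MW3), calsyntenin-1 (0.57, but 0.0614 without LW1, 0.104 without MW2, 0.14 without MW3 and 0.0583 with colony as a block), teneurin-m (0.22, but 0.0781 to 0.132 without any one of LW2, LW3, MW2 and MW3) and the fat-like cadherin above. In translation, 1 of 4 was higher, eukaryotic initiation factor 4 gamma 2 with 802, 873 and 989.9 in LW1, LW2 and LW3, against 514 in MW2 and 526 in MW3 (0.75 ± 0.09). The ribosomal protein S18 did not pass (-0.11, adjusted p = 0.709). The matrix group had 1 of 15 higher, hemicentin-2 (0.26, adjusted p = 0.126 without MW3), the cilium group 1 of 7, the axonemal dynein light chain above, and neither had a member lower. The 1 mobile element, a jockey-like reverse transcriptase, did not pass (-0.64, adjusted p = 0.152).

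Other groups had few calls with all 3 LW libraries and more without LW1. Of 8 cuticle and mucin members, 1 was higher (glycine-rich cell wall structural protein 1, 0.42, but limma adjusted p between 0.0692 and 0.226 without any one of LW1, LW3, MW2 and MW3) and 1 lower (cuticle protein 2-like, -0.40, but 0.0614 without LW2 and 0.183 without MW2), and without LW1 0 were higher and 3 lower. Cuticle collagen 2C-like was at 808 in LW1, inside the MW range of 617 to 813, but at 90.2 in LW2 and 59.0 in LW3 (-1.92, adjusted p = 0.0687; without LW1 -2.96, adjusted p = 0.000149; with colony as a block 0.0225). Skeletor, a protein of the insect cuticle and spindle matrix, was at 248 in LW1, 116 in LW2 and 97.3 in LW3, against 293 in MW2 and 207 in MW3 (-0.71, adjusted p = 0.0937; without LW1 -1.08, adjusted p = 0.00323). The summed abundance of the group ran from 931 to 2641 in LW and from 1803 to 2118 in MW.

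The muscle group was similar. Of 10 members, 0 were higher and 1 lower, the M-line protein unc-89, with 174, 108 and 77.3 in LW1, LW2 and LW3, against 247 in MW2 and 165 in MW3 (-0.73 ± 0.24, limma adjusted p = 0.0442). The ranges overlap for that gene, and it lost its call without any one of LW2, LW3, MW2 and MW3 (0.0527 to 0.345). Without LW1, 4 were lower and 1 higher. Sarcomeric alpha-actinin, which anchors thin filaments, was at 893 in LW1, 445 in LW2 and 380.2 in LW3, against 1039 in MW2 and 762 in MW3 (-0.72, adjusted p = 0.0572; without LW1 -1.08, adjusted p = 0.000248; with colony as a block 0.0228). Troponin C (without LW1, adjusted p = 0.00806; with colony as a block 0.0396) and titin (0.0319 without LW1) were also lower in these fits. Summed over the group, abundance ran from 1670 to 2848 in LW and from 2742 to 3459 in MW, so the groups overlap. A share of muscle in the pools that differs between stages was not tested as a source of these values.

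In lipid and steroid metabolism, 0 of 8 members were higher and 1 was lower, the fatty acyl-CoA reductase, and without LW1 0 and 2. Phospholipase A1 was at 138 in LW1, above the MW values of 53.5 and 71.3, and at 12.9 in LW2 and 2.11 in LW3 (-0.75, limma adjusted p = 0.356; without LW1 -1.60, adjusted p = 0.000541). Fatty acid synthase-like was at 890 in LW1, 827 in LW2 and 456 in LW3, against 325 in MW2 and 309 in MW3, with non-overlapping ranges and an adjusted p just above the threshold (1.09 ± 0.38, adjusted p = 0.0528; 0.0186 with colony as a block). Of the 38 neuronal members, 3 were higher and 1 lower, and without LW1 10 and 1. They included 2 features for the calcium channel subunit alpha-2/delta-3 that differed in direction: LOC100647110 was higher (0.91) and LOC100651076 lower (-0.39, but limma adjusted p between 0.0509 and 0.0949 without any one of LW3, MW2 and MW3). The summed neuronal abundance ran from 1558 to 2805 in LW and from 1250 to 1735 in MW. Most of it came from the glutamate-gated chloride channel alpha feature (mean 1814 in LW and 995 in MW). That feature spans far more abundant features, as given below, and may share their reads, so the sum cannot be read as neuronal RNA. Other features that passed without LW1, but not with it unless colony was a block, were the catalytic subunit PRKX of cAMP-dependent protein kinase, with 94.0 in LW1, 29.1 in LW2 and 27.3 in LW3, against 85.5 in MW2 and 93.9 in MW3, and the MFS-type transporter SLC18B1-like, with 320 in LW1, 501 in LW2 and 570.1 in LW3, against 191 in MW2 and 259 in MW3 (without LW1, adjusted p = 0.00101 and 0.0243; with LW1 and colony as a block, 0.0357 and 0.0122). Transmembrane protein C5orf28 was at 172 in LW1, 290.2 in LW2 and 277 in LW3, against 202 in MW2 and 182 in MW3 (0.00851 without LW1, and 0.0312 with LW1 and colony as a block).

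Of 7 digestive enzymes, 0 were called with all libraries and no block. Chymotrypsin-2-like was higher with colony as a block (limma adjusted p = 0.025), without MW3 (0.0399) and without LW1 (0.0408). Also without LW1, a dipeptidase 1-like gene (0.0494) was higher and aminopeptidase N (0.0204) was lower. The proteases trypsin 3A1-like and chymotrypsin-1-like were among the 100 most abundant features of every LW and MW library. Trypsin 3A1-like was at 22062, 37959 and 26511 in LW1, LW2 and LW3, against 30289 in MW2 and 53333 in MW3, and chymotrypsin-1-like at 22679, 35528 and 20611 in LW1, LW2 and LW3, against 18678 in MW2 and 27415 in MW3. The ranges overlapped for both, and neither passed (limma adjusted p = 0.413 and 0.815). The glutamate-gated chloride channel alpha feature passed without LW1 (1.19, adjusted p = 0.0175), but it spans the trypsin 3A1-like gene and a far more abundant feature, NC_015776.1_2798518_2799950, whose mean was 52412 in LW and 3891 in MW, and shared reads cannot be told apart from its own. Of the 2 storage and transport members, hexamerin was higher and melanotransferrin did not pass with LW1 (-0.25, adjusted p = 0.0785; 0.036 without). No named feature matched the silk list (0 members), so silk gland genes were not analysed here.

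**Figure D4:**
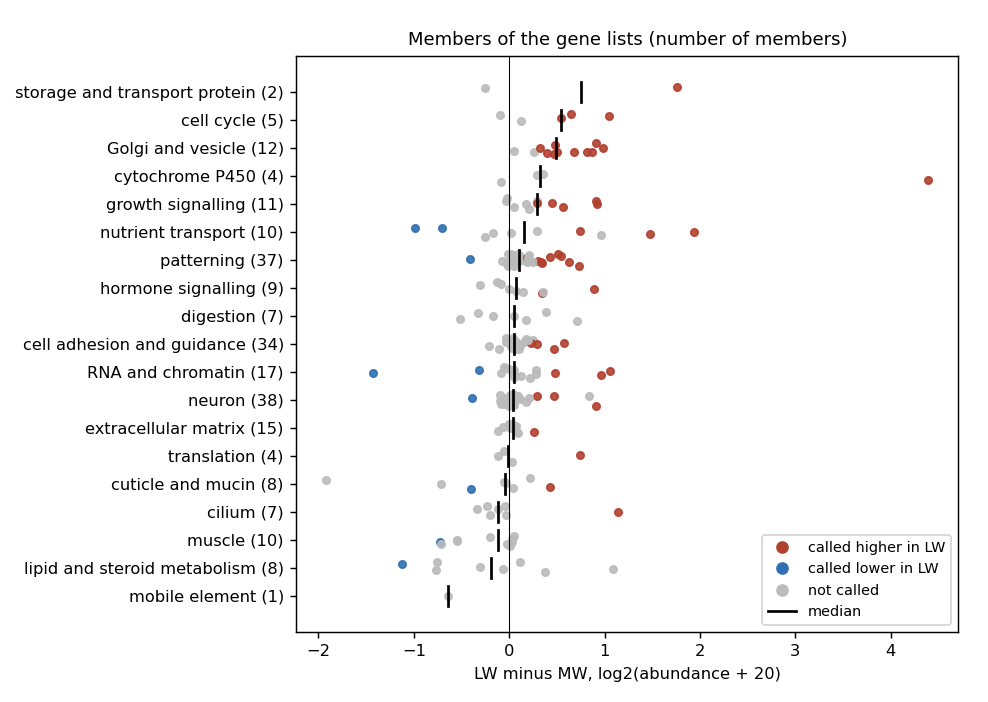
LW minus MW on the log2(abundance + 20) scale (horizontal axis) for each member of the gene lists (rows, with the number of members). Red points were called higher in LW, blue points lower, grey points not called, and black bars are medians. The Golgi and vesicle row has 10 of 12 members higher, and the neuron row 3 of 38.

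Whether the worker-destined change differs from that of queen-destined larvae was tested directly, as LW minus MW less LQ minus MQ, which share no library. Of all features, 155 (1.05%) had a more positive and 211 (1.42%) a more negative change in worker-destined larvae. In 203 of these 366 the estimated changes had opposite signs, whether or not either was called, and choosing by the difference favours this. Both changes were called, in opposite directions, in 34 of the 366, against 35 of all features. The 366 are 2.47% of all features. Without LW1 the counts were 232 (1.57%) and 267 (1.8%), 3.37% together, and with colony as a block 42 (0.283%) and 79 (0.533%). They were fewest without a MW library, with 23 and 58 features without MW2 and 16 and 44 without MW3. Without LW2 they were 76 and 124, and without LW3 103 and 168. Both changes were called in the same direction for 2414 features, which is 64.9% of those called between LW and MW and 41.7% of the 5795 (39.1% of all features) called between LQ and MQ. The LQ and MQ calls were 3036 (20.5%) higher in LQ and 2759 (18.6%) lower. Of the 366, 22 have a name.

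Hexamerin was higher in LW than in MW, as above, whereas in queen-destined larvae it was at 2143, 4938 and 3833 in LQ, against 7762, 6385 and 11398 in MQ, a fall of 1.26 ± 0.28. The worker change exceeded the queen change by 3.03 ± 0.42 (limma adjusted p = 0.00428; 0.0308 with colony as a block). LW and LQ values overlapped, and the 2 MW libraries, at 1201 and 1114, were the lowest of the 11 mid and late libraries. Kr-h1, which had not passed in worker-destined larvae, fell by 1.16 ± 0.14 in queen-destined larvae, and the difference of 1.03 passed (adjusted p = 0.0293; 0.0541 with colony as a block). Cytochrome P450 303a1, linked in *Drosophila* to sensory bristle development, stayed between 4.40 and 15.6 in the 5 worker-destined libraries, against 3.60 to 7.24 in LQ and 66.5 to 128 in MQ (difference of changes 2.03, adjusted p = 0.00428). The genes for golgin-84, estradiol 17-beta-dehydrogenase 2 and MOXD1 homolog 1 had the same form, with small differences between LW and MW that did not pass (0.26, 0.38 and 0.18) and falls in queen-destined larvae (LQ minus MQ of -0.77, -1.020 and -1.22). The difference of changes for MOXD1 homolog 1 did not pass without MW3 (limma adjusted p = 0.0527).

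Other genes rose in queen-destined larvae and less or not detectably in worker-destined ones. Chymotrypsin-2-like, a digestive protease, was at 618, 826 and 1083 in LW1, LW2 and LW3, against 349 in MW2 and 696 in MW3, and at 6843, 8269 and 8626 in LQ, against 302, 567 and 559 in MQ. Its worker change was smaller than its queen change by 3.33 ± 0.40 on the log2 scale (limma adjusted p = 0.00273). Cytochrome P450 6k1-like was between 0 and 21.3 in LW and at 2.49 and 0 in MW, against 76.6 to 230.3 in LQ and 0 to 1.97 in MQ (difference of changes -2.55, adjusted p = 0.0119; 0.0611 without MW2, 0.0527 without MW3 and 0.051 with colony as a block). The feature taken as the P17/29C-like gene, the most differentiated worker-biased feature at the mid stage, was at 9570 in LW1, 42070 in LW2 and 29399 in LW3, against 3694 in MW2 and 3162 in MW3 (2.73 ± 0.67, adjusted p = 0.0116; 0.0646 without MW2 and 0.0743 without MW3). In queen-destined larvae it rose by 7.86, with LQ values of 11295 to 26511 against MQ values of 25.6 to 188, so that the late values of the castes overlapped and the mid values did not (difference of changes, adjusted p = 0.013). The feature taken as the Plrp2-like lipase, the most differentiated queen-biased feature at the mid stage, was at 264, 65.3 and 109 in LW1, LW2 and LW3, against 202 in MW2 and 27.8 in MW3, with no difference detected (0.50 ± 0.96, adjusted p = 0.739). These 2 features were chosen for their caste difference at the mid stage, which includes the MW values used here.

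**Figure D5:**
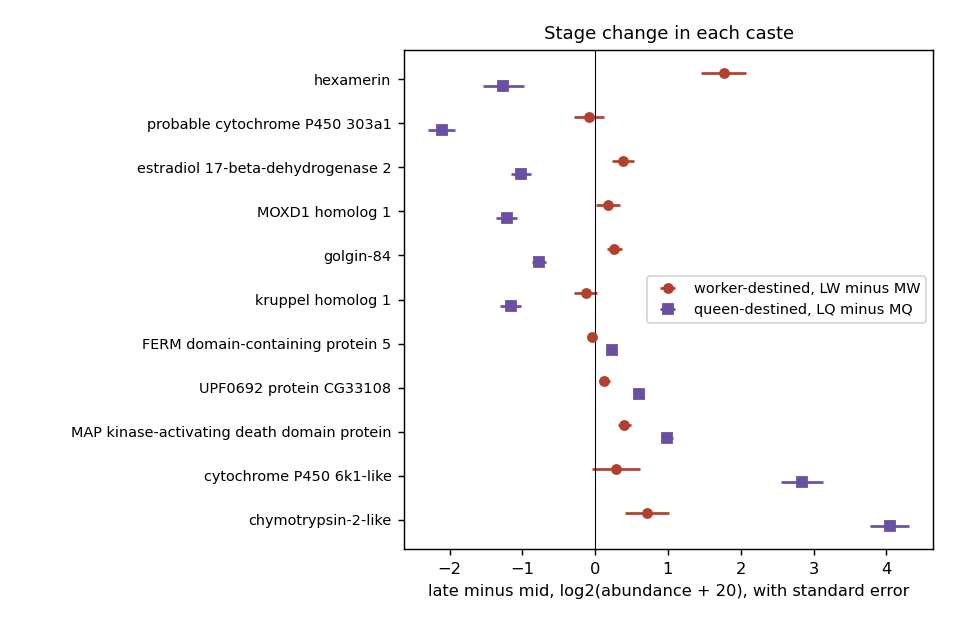
Late minus mid difference on the log2(abundance + 20) scale, with standard error, in worker-destined (red circles, LW minus MW) and queen-destined (purple squares, LQ minus MQ) larvae for 11 named genes whose changes differ between castes by limma. Hexamerin is at 1.77 in worker-destined and -1.26 in queen-destined larvae, and chymotrypsin-2-like at 0.71 and 4.04.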

How the data were processed

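Pools of whole larvae had been sequenced as mRNA on an Illumina HiSeq 2500. The authors drew equal numbers of reads per library, mapped them to the Bter_1.0 assembly with at most 1 mismatch, keeping reads that map to several places, assembled unannotated transcripts from reads outside genes, scaled to feature length, and applied quantile normalisation. What was deposited is a signal per feature and library, called normalised abundance here, with no counts and no depth. Of 20 samples, 3 are not analysed here; among them is MW1, which the authors removed because it resembled the other MW libraries less.

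Values were taken as log2(abundance + 20) and fitted with limma 3.58.1 in R 4.3.3, with an intensity trend and 6 phenotype means over 17 libraries (11 residual and 2.35 prior degrees of freedom), so that the 2 MW libraries borrow the spread of the other phenotypes. Contrasts were LW minus MW, and the same less LQ minus MQ, with Benjamini-Hochberg adjustment over 14817 features and a threshold of 0.05. Every comparison was repeated without LW1. In simulated data with these groups, 50, 100 and 50 of 14817 features were changed by 0.5, 1 and 2 (log2). Of these, 20%, 79% and 96% were recovered, and 11 of 148 calls were of unchanged features. Without LW1 the shares were 24%, 70% and 84%, with 4 of 128. Far fewer features were changed than were called in the data. Noise was independent with the same spread in all phenotypes, so no library stood apart as LW1 did, and these shares may not hold for the data.

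Replicate numbers pair the samples because the study's list of colonies assigns the worker-destined libraries of one number to one colony. In the block, numbers were taken as colonies for the queen-destined libraries too, which was not checked here. The caste-dependent results with the block rest on this. Over features, LW2 minus LW3 had a correlation of 0.236 with MW2 minus MW3 and -0.224 with EW2 minus EW3, and MW2 minus MW3 had 0.0989 with EW2 minus EW3, so 1 of the 3 was above 0.1. LW1 has no MW partner. Colony as a block was therefore an alternative. The block is a colony term shared by all stages, not a pairing of LW with MW alone, so LW1 was adjusted through EW1. It takes the difference between colonies as the same at every stage, while 1 of the 3 correlations above is negative.

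Product names were taken from the readable part of the study's annotation by feature ID (1054 lines, 423 symbols found in RefSeq iyBomTerr1.2), names only and no values. Named genes are the 15 named features with the largest difference in each direction among those called with non-overlapping ranges; all members of lists of up to 8, or up to 6 members by size of difference; hexamerin, Kr-h1, broad-complex and the 2 mid-stage caste features; the 5 unnamed features with the largest difference in each direction; up to 5 named features in each direction whose call depends on LW1; and up to 5 in each direction whose change differs between castes. Other called members are named in a few places, chosen after their values were seen. The comparison and the lists were chosen with earlier results of these data known, so no list is independent support. Of the 143 features under this rule, 30 overlap another feature and may share its reads.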

Additional observations from a re-analysis of the deposited data

Results flagged for a closer look

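The mid-to-late change differed between worker- and queen-destined larvae by limma in 366 features, of which 22 have a name. The 10 listed here are the named ones with the smallest p, 5 in each direction. As worker change minus queen change (log2), the values were 3.03 for hexamerin, 2.03 for probable cytochrome P450 303a1, 1.4 for estradiol 17-beta-dehydrogenase 2, 1.4 for MOXD1 homolog 1 and 1.03 for golgin-84. They were -3.33 for chymotrypsin-2-like, -2.55 for cytochrome P450 6k1-like, -0.591 for MAP kinase-activating death domain protein, -0.473 for UPF0692 protein CG33108 and -0.275 for FERM domain-containing protein 5. With colony as a block the adjusted p of 4 of the 10 was above the threshold: 0.051 for cytochrome P450 6k1-like, 0.0656 for MAP kinase-activating death domain protein, 0.0795 for UPF0692 protein CG33108 and 0.0871 for FERM domain-containing protein 5. Leaving out MW2 or MW3 did the same for these 4, with the highest adjusted p at 0.182 for UPF0692 protein CG33108 without MW2. MOXD1 homolog 1 was above the threshold without MW3 (0.0527), so 5 of the 10 lost their call without 1 library.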

How the results depend on the processing

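The replicate block, a colony term shared by the libraries of all stages, gave 2345 features higher and 1814 lower in LW as a fixed term. It gave 42 positive and 79 negative caste-dependent changes, and 337 and 376 as a random effect. Of the 143 features under the rule for named genes, unnamed ones included, 80 were called. Of these 80, 35 lost their call without MW2, 30 without MW3, 20 without LW2, 20 without LW3 and 6 without LW1. With the fixed block 8 lost it, and 55 did in a fit of the 5 libraries alone. With a term for the split of libraries by uNW_003568514.1_1_229 (chosen after the data were seen) 12 lost it. Under every setting that included the feature, 25 kept their call. The setting with a mean abundance of at least 100 included 50 of the 80. No difference of a called feature reversed (0).

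Leaving out 1 library gave 831 to 2985 features higher and 459 to 1955 lower by limma, and 16 to 232 and 44 to 267 caste-dependent changes. The OFC rule gave 192 to 452 and 123 to 441 features.

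The limma counts higher and lower were 3954 and 2933 with library quality weights. Those weights were 0.248 in LW1, 4.21 in LW2 and 0.62 in LW3, so that fit leaned on LW2. The limma counts were 948 and 474 at a threshold of 0.01, and 170 and 139 with the 5 libraries alone. Features higher numbered 1402 at a mean abundance of at least 100 and 1335 with the 8 worker-destined libraries, and features lower 907 among annotated ones. Caste-dependent changes were 993 and 820 with quality weights and 89 and 98 at a mean of at least 100, and the negative ones 137 with an offset of 1. Non-overlapping ranges gave 2361 and 2326 at that mean, and 1972 lower among annotated features. The OFC counts were 325 and 225 with an offset of 1, 640 and 631 at a threshold of 0.5, and 44 and 26 at 2. On the axis, MW2 was at 0.0986 and MW3 at 0.0935 as a mean of clipped positions, and at 0.0519 and 0.0368 with annotated features. Fewer features or libraries enter several of these fits; for the other differences the cause was not tested. Depth cannot be read from the values, and 2234 features had a mean under the offset of 20.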
